A study of Mus musculus with 20 samples.

Results

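The mRNA levels of 10 selenoprotein genes were followed in libraries meant to represent subcerebral projection neurons of the developing mouse, the neurons through which the cortex reaches the brainstem and spinal cord. Markers of other cells were also counted in these libraries, as given below. The genes were listed by name (Selenom, Selenow, Selenof, Selenok, Selenop, Selenos, Selenot, Selenoh, Gpx1 and Gpx4) and are 10 of the 55487 genes counted and 10 of 24 listed mouse genes that encode selenoproteins. The list was chosen by name after a lower level of Selenom in somata labelled KO was known from these libraries, and it was not stated whether values of the other 9 genes were used. Differences between soma libraries of the 2 genotypes, and the interaction that uses them, are therefore given for the listed genes as descriptions without a test.

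Messenger RNA was measured by RNA-seq in 20 libraries from mice at postnatal day 1. Growth cones, the motile tips of growing axons, came from brainstem and spinal cord, and somata, the cell bodies, came from cortex. The 4 groups had 5 libraries each: WT growth cones, growth cones labelled Bcl11b KO, WT somata and somata labelled Bcl11b KO, where Bcl11b encodes a transcription factor of these neurons. The strain, the alleles, any Cre driver and the number of animals behind a library were not given in the sources used here, nor was it stated that libraries came from separate animals, so p-values measure only the spread between these samples, which may be technical. Libraries carry experiment numbers, which were 7 to 11 for growth cones of both genotypes, 12, 14, 22, 25 and 26 for WT somata, and 14, 15, 22, 25 and 26 for somata labelled KO. The compartments share no number and came from different tissues. The range of RNA input also differed, at 0.19 to 3.1 ng for growth cones and 1.8 to 3.1 ng for somata. In comparisons of growth cones with somata, compartment, experiment and tissue therefore cannot be told apart.

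Selenoproteins carry selenocysteine, an amino acid in which selenium takes the place of the sulphur of cysteine. It is inserted at an in-frame UGA codon that would otherwise end translation, with the help of a stem-loop in the 3′ untranslated region of the mRNA (the SECIS element), a protein that binds it (SECISBP2), a dedicated elongation factor (EEFSEC) and a dedicated tRNA. Many of these proteins are enzymes of redox chemistry, and the brain is known for retaining selenium and selenoproteins when the supply of the element falls. Neurons depend on GPX4 in particular, which reduces lipid hydroperoxides in membranes.

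The selenocysteine codon is the feature that the 10 genes share, and its surroundings show how they differ. The reading frame around the TGA is given below for each gene from the GENCODE M21 transcript, 5′ to 3′, with the TGA in capitals. For Selenop, the first of its 10 TGA codons is shown.
Gpx1: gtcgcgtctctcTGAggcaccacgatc
Gpx4: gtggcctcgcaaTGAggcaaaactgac
Selenow: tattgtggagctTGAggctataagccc
Selenoh: cattgtacgagcTGAcgcgtgtacggc
Selenot: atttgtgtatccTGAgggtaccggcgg
Selenom: acctgtggaggaTGAcagttgaatcgc
Selenof: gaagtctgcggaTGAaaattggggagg
Selenok: atggctggtggaTGAggaagg
Selenos: tcatctggcggcTGAaac
Selenop: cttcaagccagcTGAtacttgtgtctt
In Selenow, Selenoh, Selenot and Selenom the codon 3 positions before the TGA was TGT, for cysteine, the arrangement known as CxxU in proteins with a thioredoxin-like fold. In the other 6 genes that position held another codon. The TGA was codon 13 of 88 in Selenow, 38 of 116 in Selenoh, 48 of 145 in Selenom and 49 of 195 in Selenot, and it was codon 47 of 201 in Gpx1 and 73 of 197 in Gpx4. In Selenok and Selenos, which encode single-pass membrane proteins of the endoplasmic reticulum (ER), it lay at the end of the reading frame, at codon 92 of 94 and 189 of 190. It was codon 93 of 162 in Selenof, and in Selenop it was codon 59 of 380 with the other 9 after it.

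Growth cone libraries held 26382991 to 29323028 counts in WT and 21657575 to 27723067 in those labelled KO, and soma libraries 18962308 to 36059112 and 35243688 to 51205154. Bcl11b itself went against the soma labels, with 536 to 805 CPM (counts scaled to a fixed library total) in WT somata and 1078 to 1230 CPM in somata labelled KO (log2 fold change 0.71 ± 0.12 SE, adjusted p = 0.0153, edgeR quasi-likelihood test; 0.72 with an adjusted p of 0.279 when all 20 libraries entered 1 fit). In growth cones its levels overlapped, at 72.3 to 122 CPM in WT and 69.8 to 140.5 CPM in libraries labelled KO. The allele was not given in the sources used here, so it is not known whether the counted exons include a deleted part, and the libraries are called by their labels throughout.

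Levels are given as CPM scaled by trimmed mean of M values (TMM) over all 20 libraries, which compares 1 gene between libraries. Together the 10 genes held 0.756% ± 0.143 of all counts in WT growth cones and 0.782% ± 0.233 in growth cones labelled KO (SD, n = 5 each). In somata they held 0.164% ± 0.0360 in WT and 0.153% ± 0.00791 in libraries labelled KO. In WT growth cones against WT somata, 9 of the 10 genes were higher at a false discovery rate (FDR) of 0.05 over all genes tested and 0 were lower, against 23.1% of 15128 tested genes higher and 19.7% lower. The same 9 genes were higher in growth cones labelled KO against somata labelled KO, where 21.6% of 15410 tested genes were higher and 17.0% lower. The groups did not overlap for 7 of the 10 genes in WT and 8 of 10 in libraries labelled KO, in each case with the growth cones higher, against 19.8% and 17.9% of all genes tested. The median log2 fold change of the 10 genes was 2.15 in WT and 2.10 in libraries labelled KO, beside 0.07 and 0.11 over all tested genes. Selenom is part of each of these values. Its low level in somata labelled KO was known beforehand, so its place in the values of libraries labelled KO is a description only.

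Transcript length moved with this comparison. Among tested genes with at most 2000 exonic bases, 46.6% were higher in WT growth cones and 5.66% lower, and 45.5% were higher and 3.93% lower in growth cones labelled KO. Of the 10 selenoprotein genes, 7 are this short, and Selenof, Selenop and Selenot are longer. When the fit carried an offset for the length dependence of each library, the WT log2 fold change of every gene except Selenot and Selenof was lower, and the call for Gpx1 was lost. For the 10 genes the WT value with this offset is given beside the value as reported.

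**Figure D1:**
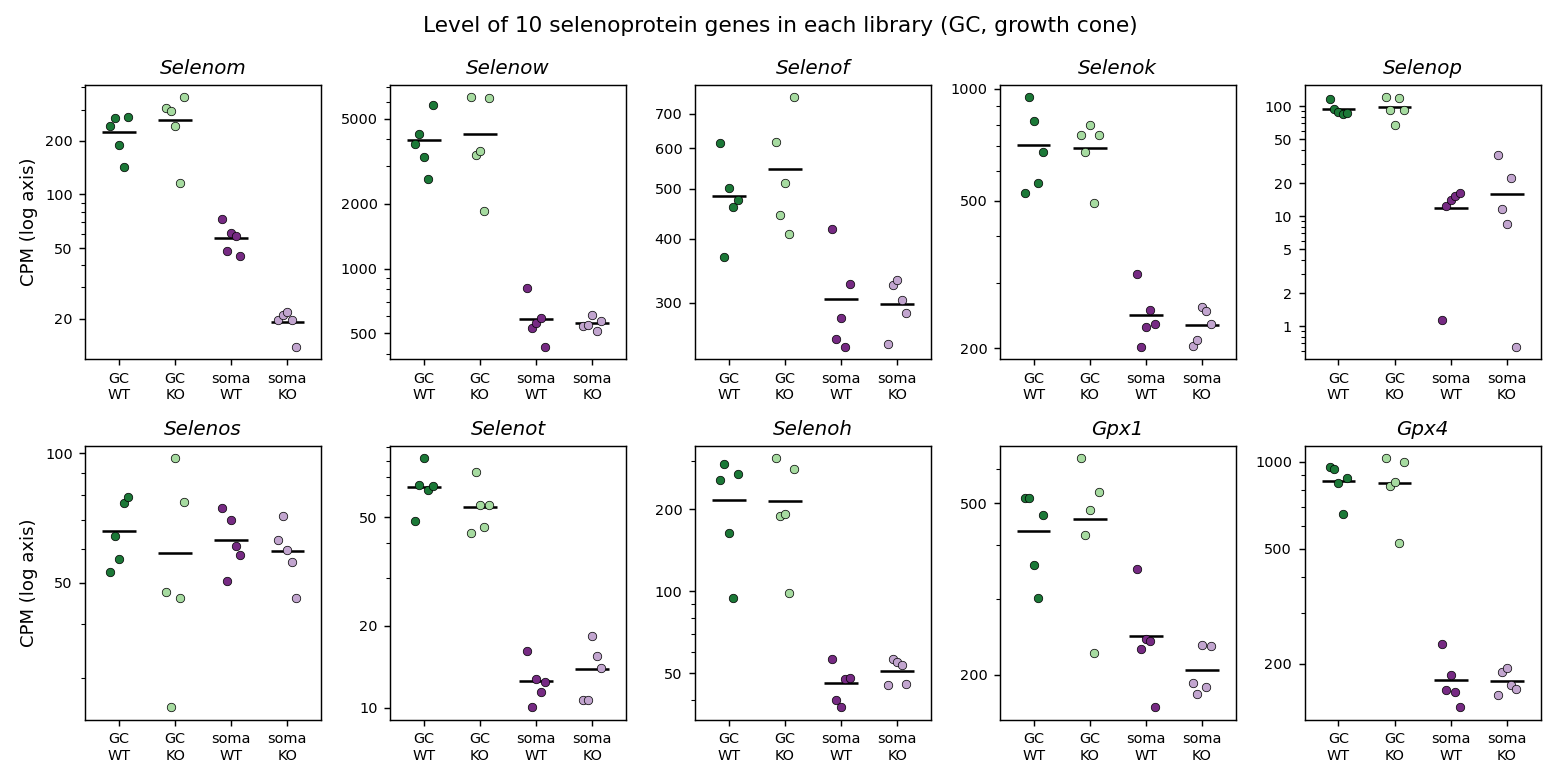
Level of each selenoprotein gene in CPM (y axis, logarithmic, a separate scale per gene) in every library of the 4 groups (x axis; GC, growth cone; KO as labelled), with a bar at the group mean (n = 5). Growth cone libraries lie above soma libraries without overlap for Selenom, Selenow, Selenok, Selenop, Selenot, Selenoh and Gpx4, the groups overlap for Selenos, and the soma groups part only for Selenom.

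The glutathione peroxidases were both higher in growth cones. Gpx4 (chr10:80047166-80056439, plus strand, GRCm38) encodes the enzyme that reduces phospholipid hydroperoxides and guards cells against ferroptosis. It measured 962, 948, 848, 660 and 877 CPM in WT growth cones and 234, 163, 183, 160 and 142 CPM in WT somata. In libraries labelled KO it measured 1031, 826, 852, 525 and 998 CPM in growth cones and 156, 187, 194, 169 and 163 CPM in somata. The lowest growth cone library stood above the highest soma library in both genotypes. The log2 fold change was 2.33 ± 0.17 SE (adjusted p = 1.2e-06, edgeR) in WT libraries and 2.36 ± 0.18 in those labelled KO (adjusted p = 2.9e-06), and 1.59 in WT with the length offset. Reads of Gpx4 can also fall on its processed copy Gpx4-ps2, which held 4.01% to 12.1% as many counts as Gpx4 in WT somata and 4.74% to 5.21% in WT growth cones.

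Gpx1 (chr9:108338903-108340343, plus strand) encodes the cytosolic peroxidase that reduces hydrogen peroxide with glutathione. It measured 515, 514, 359, 301 and 469 CPM in WT growth cones against 353, 229, 241, 239.5 and 168 CPM in WT somata, and 637, 421, 483, 225 and 531 CPM against 191, 179.9, 235, 187 and 234 CPM in libraries labelled KO. The ranges overlapped in both genotypes: WT soma library 12 reached above WT growth cone library 10, and growth cone library 10 labelled KO fell among the somata. Its log2 fold change was 0.85 ± 0.21 (adjusted p = 0.00695, edgeR) in WT libraries and 1.24 ± 0.24 in those labelled KO (adjusted p = 0.00150). With the length offset it was -0.07 (adjusted p = 0.742) in WT libraries and 0.32 in those labelled KO (adjusted p = 0.238), so the direction in WT turned and both calls were lost.

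The 4 genes with the CxxU arrangement among the 10 were all higher in growth cones, without overlap in either genotype. Over all tested genes, 19.8% in WT and 17.9% in libraries labelled KO were higher without overlap. Gpx4, Selenok and Selenop, which lack the arrangement, were also higher without overlap in both genotypes, so the trait is not particular to it. The arrangement also occurs in Selenov and Selenoo, described below. Selenov, low throughout, was higher in growth cones without overlap in both genotypes. Selenoo went the other way, lower in growth cones without overlap in both genotypes. It measured 0 to 10.87 CPM in WT growth cones and 25.97 to 45.77 CPM in WT somata. With the KO label it measured 0 to 12.51 CPM in growth cones and 26.77 to 42.65 CPM in somata. Its WT log2 fold change of -2.80 ± 1.17 did not pass the threshold with edgeR. Selenow (chr7:15917208-15922402, minus strand, 736 exonic bases) encodes a small cytosolic thiol-redox protein that is abundant in muscle and brain. It measured 3823, 4255, 3318, 2628 and 5815 CPM in WT growth cones and 813, 527, 559, 589 and 433 CPM in WT somata. The libraries labelled KO gave 6277, 3373, 3525, 1847 and 6226 CPM in growth cones and 542, 547, 608, 511 and 567 CPM in somata. Growth cone libraries varied widely, by 3.40 times from lowest to highest in libraries labelled KO, yet the lowest stood above every soma library. The log2 fold change was 2.81 ± 0.23 (adjusted p = 3.0e-06, edgeR) in WT libraries and 3.02 ± 0.30 in those labelled KO (adjusted p = 1.7e-05), and 1.37 in WT with the length offset.

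Selenom (chr11:3514684-3517351, plus strand; its TGA lies in exon 2 of 5, at chr11:3516273-3516275) encodes a thioredoxin-like protein of the ER that is prominent in brain. It measured 241, 269.7, 190.2, 143 and 271 CPM in WT growth cones and 72.8, 47.9, 60.9, 58.2 and 45.1 CPM in WT somata. The log2 fold change in WT was 2.01 ± 0.22 (adjusted p = 1.9e-05, edgeR) and 1.11 with the length offset. In libraries labelled KO it measured 305, 294, 242, 116 and 351 CPM in growth cones and 19.7, 21.1, 21.9, 19.6 and 13.97 CPM in somata. That difference, 3.84 ± 0.29 on the log2 scale, rests on the soma libraries whose low Selenom was known beforehand, and it was the largest of the 10 genes in libraries labelled KO.

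Selenot (chr3:58576636-58593133, plus strand) encodes a membrane-bound thioredoxin-like protein of the ER, and Selenoh (chr2:84669215-84670770, minus strand) a redox protein found in the nucleolus. Selenot measured 48.2, 65.3, 82.2, 62.9 and 64.7 CPM in WT growth cones and 16.2, 10.04, 12.7, 11.4 and 12.4 CPM in WT somata, a log2 fold change of 2.41 ± 0.25 (adjusted p = 1.5e-05, edgeR). Selenoh measured 257, 295, 164, 94.6 and 270.4 CPM in WT growth cones and 56.3, 39.99, 37.6, 47.7 and 48.0 CPM in WT somata, a log2 fold change of 2.28 ± 0.29 (adjusted p = 6.6e-05). Selenot was the steadier of the pair among growth cones, while WT growth cone library 10 stood low for Selenoh. The libraries labelled KO gave log2 fold changes of 2.06 ± 0.27 for Selenot (adjusted p = 0.00013, edgeR) and 2.14 ± 0.27 for Selenoh (adjusted p = 9.6e-05). With the length offset the WT values were 2.61 for Selenot, among the longer of the 10 genes, and 1.08 for Selenoh.

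The ER proteins differed among themselves. Selenof (chr3:144570304-144597680, plus strand, 5819 exonic bases) encodes an ER protein that binds the folding sensor UGGT. It measured 614, 368, 502, 462 and 477 CPM in WT growth cones and 418, 256, 281, 247 and 326 CPM in WT somata, and WT soma library 12 overlapped with the growth cones. Its log2 fold change was 0.71 ± 0.18 (adjusted p = 0.00759, edgeR) in WT libraries and 0.95 ± 0.17 in those labelled KO (adjusted p = 0.00113), where the groups did not overlap. With the length offset the WT value rose to 1.18.

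Selenok (chr14:29968308-29975662, plus strand) and Selenos (chr7:66079649-66089405, plus strand) encode single-pass ER membrane proteins that join the machinery for removing misfolded proteins from the ER, and Selenok also serves as a cofactor of the palmitoyl transferase ZDHHC6. Selenok measured 525, 949, 821, 558 and 675 CPM in WT growth cones and 316, 202, 228, 253 and 232 CPM in WT somata, a log2 fold change of 1.56 ± 0.19 (adjusted p = 4.5e-05, edgeR). Its log2 fold change in libraries labelled KO was 1.67 ± 0.15 (adjusted p = 7.7e-06, edgeR), and the groups did not overlap in either genotype. The WT value with the length offset was 0.94. Selenos was the exception among the 10 genes. It measured 52.9, 64.3, 56.7, 76.7 and 79.1 CPM in WT growth cones and 74.4, 50.5, 69.9, 60.8 and 57.9 CPM in WT somata, and 47.5, 25.6, 97.5, 45.9 and 77.2 CPM against 63.0, 71.4, 59.7, 55.7 and 46.1 CPM in libraries labelled KO. The compartments overlapped almost entirely, with log2 fold changes of 0.12 ± 0.20 (adjusted p = 0.671, edgeR) in WT libraries and 0.07 ± 0.32 in those labelled KO (adjusted p = 0.889). With the length offset Selenos was lower in WT growth cones, at -0.77 (adjusted p = 0.0104, edgeR).

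Selenop (chr15:3268547-3280508, plus strand) encodes the secreted carrier that delivers selenium to the brain and is taken up through the receptor LRP8. It measured 116, 94.9, 89.3, 84.4 and 86.5 CPM in WT growth cones and 1.13, 12.5, 13.9, 15.4 and 16.4 CPM in WT somata. With the KO label it measured 120.3, 91.8, 67.7, 118 and 91.6 CPM in growth cones and 36.1, 11.5, 8.55, 22.1 and 0.652 CPM in somata. No soma library reached any growth cone library, and the somata themselves spread far more than the growth cones did. The log2 fold change was 3.04 ± 0.53 (adjusted p = 0.00062, edgeR) in WT libraries and 2.71 ± 0.71 in those labelled KO (adjusted p = 0.0104), and 2.97 in WT with the length offset. Exons of Selenop overlap the opposite-strand gene Ccdc152 over 439 bases (15.4% of its exonic length), but Ccdc152 had at most 1 count in any library.

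**Figure D2:**
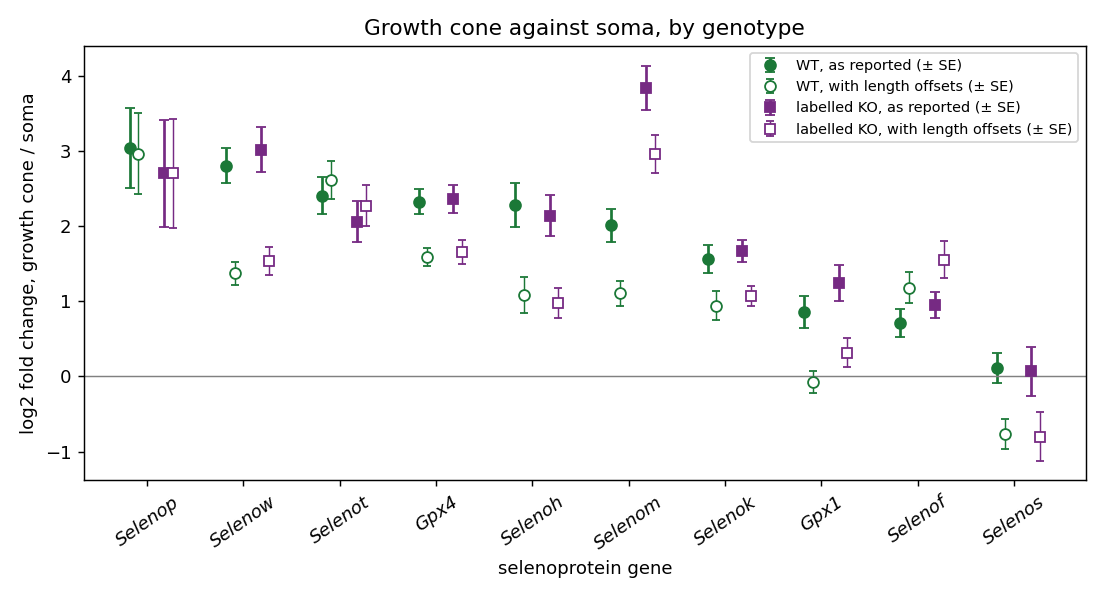
Log2 fold change of growth cone over soma (y axis) for each selenoprotein gene (x axis, ordered by the WT value) in WT (circles) and in libraries labelled KO (squares), with bars of 1 SE. Filled symbols are the values as reported and open symbols those with length offsets: 9 genes lie above 0 in both genotypes as reported, Selenos lies at 0.12 and 0.07, and with the offsets Gpx1 and Selenos in WT lie at -0.07 and -0.77.

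Markers of other cells moved with the compartments. In WT growth cones the summed level of 8 astrocyte markers was 838 to 1070 CPM against 22.7 to 188 CPM in WT somata, and 8 markers of the oligodendrocyte lineage summed to 523 to 2245 CPM against 57.7 to 101 CPM. Markers of vessels and blood summed to 277 to 529 CPM against 3.38 to 20.5 CPM, those of the choroid plexus to 273 to 417 CPM against 0.105 to 2.17 CPM, and those of meninges and fibroblasts to 136 to 243 CPM against 1.90 to 27.4 CPM. The choroid plexus markers Kl and Otx2 were at 0 in every WT soma library. Markers of hindbrain and spinal cord neurons summed to 81.2 to 158 CPM in WT growth cones and to 0.105 to 0.720 CPM in WT somata, where Hoxc6 was at 0. Libraries labelled KO showed the same parting, for example 591 to 1144 CPM of astrocyte markers in growth cones against 97.2 to 246 CPM in somata. Microglial markers overlapped, at 55.8 to 82.8 CPM in WT growth cones and 37.95 to 142 CPM in WT somata. The sums of 4 nuclear-retained RNAs (Malat1, Neat1, Meg3 and Xist) overlapped too. They were 391 to 691 CPM in WT growth cones and 236 to 716 CPM in WT somata. With the KO label they were 171 to 1085 CPM in growth cones and 349 to 770 CPM in somata. Growth cone libraries were thus not low in these RNAs. Markers of subcerebral projection neurons, counted with Bcl11b, summed to 790.3 to 1035 CPM in WT growth cones and 2165 to 2410 CPM in WT somata. The list was split within itself. Its member Pcp4 went against the sum, with means of 299 CPM in WT growth cones and 43.2 CPM in WT somata (TMM-scaled). The part of these cells in the selenoprotein differences was not tested, and in bulk libraries fewer cells of a type and less RNA per cell cannot be told apart.

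Within the 10 soma libraries Selenop was the most variable of the 10 genes, and the 2 libraries with the lowest Selenop also had the lowest sums of vessel and blood markers and of microglial markers. WT soma library 12 had 1.13 CPM of Selenop with 3.38 CPM of vessel and blood markers and 37.95 CPM of microglial markers, and soma library 26 labelled KO had 0.652 CPM with 0.284 and 44.1 CPM. The highest Selenop, 36.1 CPM in soma library 14 labelled KO, came with 23.0 CPM of vessel and blood markers, 169 CPM of astrocyte markers and 144 CPM of microglial markers. Soma library 25 labelled KO had the second highest Selenop, 22.1 CPM, and the highest vessel and blood and astrocyte sums, at 62.9 and 246 CPM. Astrocyte markers and Selenop were not in the same order over all libraries, since soma library 26 labelled KO had 116 CPM of them, above WT libraries 14 and 22 (85.3 and 92.7 CPM) and library 22 labelled KO (97.2 CPM), which all had more Selenop. The part of these markers in the Selenop levels was not tested.

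**Figure D3:**
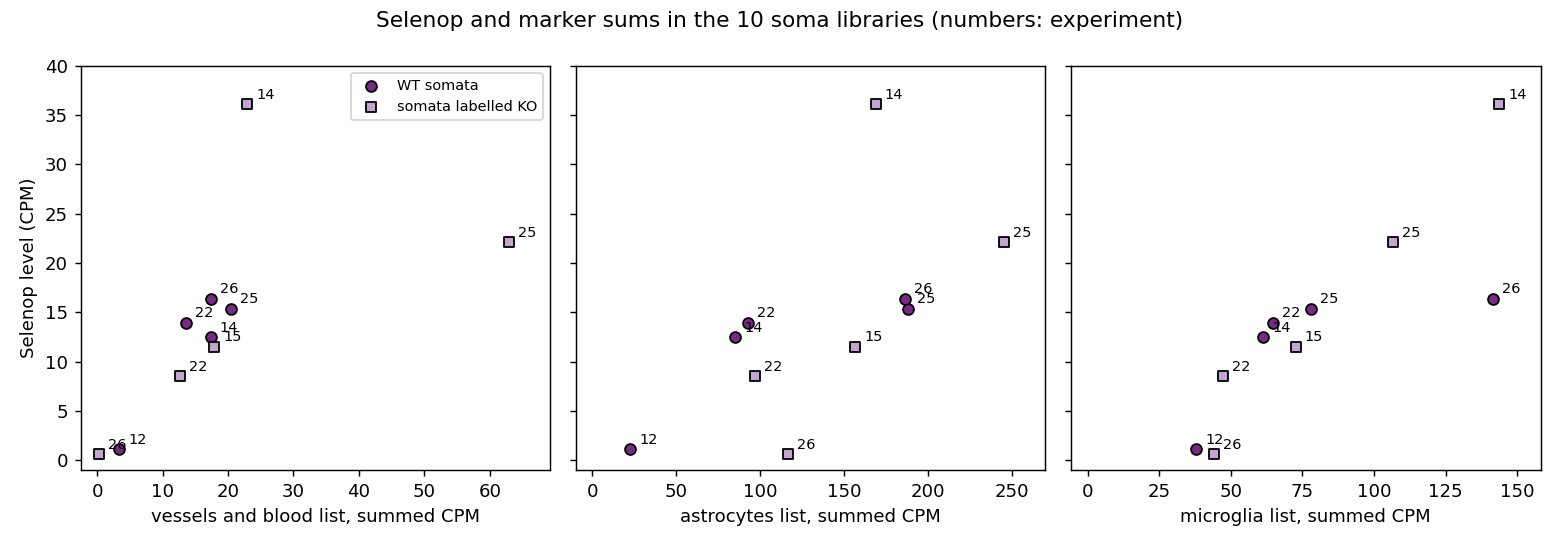
Selenop level in CPM (y axis) against the summed CPM of markers of vessels and blood, of astrocytes and of microglia (x axes, 1 panel each) in the 10 soma libraries, numbered by experiment. The 2 libraries with the lowest Selenop, WT 12 (1.13 CPM) and 26 labelled KO (0.652 CPM), have the lowest or second lowest sums of vessel and blood markers and of microglial markers.

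To compare the genes with each other, levels were divided by exonic length and expressed as TPM, a count of transcripts scaled to a fixed total per library. Selenow was the highest of the 10 in every group by a wide margin, at 14411 ± 4058 TPM in WT growth cones (SD, n = 5), where it ranked 3 among 21285 protein-coding genes. It ranked 3 in growth cones labelled KO with 14887 ± 5302 TPM and 20 in both soma groups, with 2558 ± 531 TPM in WT and 2453 ± 121 TPM in libraries labelled KO. Selenow made up 75.5% ± 3.33 of the summed TPM of the 10 genes in WT growth cones and 57.3% ± 1.92 in WT somata. The ranges of the 2 compartments did not overlap for this share, at 73.5% to 81.5% and 54.1% to 58.8%. TPM carried no offset for the length dependence of each library, and Selenow is the shortest of the 10 genes (736 exonic bases). With that offset its WT log2 fold change between compartments was 1.37, lower than as reported.

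Below Selenow, the order in WT growth cones was Gpx4 (1333 ± 90.8 TPM), Selenok (999 ± 208), Gpx1 (797 ± 120), Selenoh (502 ± 167), Selenom (400.3 ± 75.9), Selenof (226 ± 44.9), Selenos (122 ± 29.9), Selenop (89.2 ± 9.73) and Selenot (51.05 ± 11.5 TPM). Single libraries overlapped between each gene and the next from Gpx4 to Selenom and from Selenof to Selenop, so the ranges of these neighbours were not apart. Within single WT growth cone libraries, however, Gpx4 stood above Selenok in all 5, so an overlap of ranges does not show that 2 genes had the same level. Gaps without overlap lay below Selenow, below Selenom and below Selenop. In WT somata Gpx1 (550 ± 132 TPM), Selenok (420 ± 57.0) and Gpx4 (329.8 ± 55.6) overlapped in a chain, followed after a gap by Selenof (169 ± 33.4), Selenos (137 ± 14.9), Selenoh (131 ± 18.2) and Selenom (124 ± 19.3 TPM), again overlapping. Selenop (13.7 ± 7.11 TPM) and Selenot (11.8 ± 1.65 TPM) were the lowest. Gpx4 lay above Gpx1 in the mean of WT growth cones and below it in the mean of WT somata. In somata labelled KO Selenom had 42.4 ± 7.17 TPM, ranked 3954 among protein-coding genes against 1570 in WT somata, and no Selenom library there reached the lowest of Selenos (131 ± 22.7 TPM).

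Growth cones labelled KO were then compared with WT growth cones, the question being whether the Bcl11b label moves with selenoprotein mRNA in growth cone libraries. None of the 10 genes passed the threshold, and 0.0% of 15419 tested genes did (edgeR; 329 genes had an unadjusted p under 0.05, and DESeq2 called 11). Log2 fold changes ran from -0.23 ± 0.23 for Selenot to 0.24 ± 0.26 for Selenom, all 10 with an adjusted p of 0.999, and 0 of the 10 had an unadjusted p under 0.05. Single libraries of the genotypes overlapped for all 10 genes; 0.532% of all tested genes did not overlap. For Gpx4 and Selenok, the difference was -0.01 ± 0.17 and -0.01 ± 0.18. The SE of 0.17 to 0.33 on the log2 scale sets the size of difference that these libraries could resolve.

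Growth cone libraries numbered 10 stood low in both genotypes. Among the 10 growth cone libraries, library 10 labelled KO was the lowest for 5 of the 10 genes (Selenom, Selenow, Selenok, Gpx1 and Gpx4) and among the 2 lowest for 9, and WT library 10 was among the 2 lowest for 6. Library 7 labelled KO was the highest for 5 genes (Selenow, Selenop, Selenoh, Gpx1 and Gpx4). Without both libraries numbered 10, the genotype difference in growth cones was still not past the threshold for any of the 10 genes. Among somata, WT library 12 was the highest for 8 of the 10 genes.

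In somata the 10 genes did not move together. Selenom was lower in every library labelled KO (13.97 to 21.9 CPM) than in every WT library (45.1 to 72.8 CPM), with means of 19.3 ± 3.10 and 57.0 ± 11.1 CPM (SD, n = 5 each) and a log2 difference of -1.57 ± 0.18. Over all 14911 genes tested, 0.731% were past the threshold in either direction, 0.315% were past it as lower and 1.29% were lower without overlap. Nothing is read from Selenom's place among them because this value was known when the list was drawn up. The direction follows the labels, against which the Bcl11b counts of these libraries went. The other 9 genes overlapped between genotypes, with log2 differences from -0.27 ± 0.17 for Gpx1 to 0.41 ± 0.81 for Selenop. Selenow measured 584 ± 141 CPM in WT somata and 555 ± 35.7 CPM in somata labelled KO, and Gpx4 176 ± 35.5 and 174 ± 16.1 CPM. Soma marker sums of astrocytes, 22.7 to 188 CPM in WT and 97.2 to 246 CPM in libraries labelled KO, overlapped between the genotypes. The sums of the subcerebral projection neuron markers did not, at 2165 to 2410 CPM in WT somata and 2687 to 2925 CPM in somata labelled KO. That list includes Bcl11b, scaled by library total like the sums. Bcl11b alone ran from 494 to 780 CPM in WT somata and from 1023 to 1151 CPM in somata labelled KO. A sum without Bcl11b was not made, so no shift of the other markers is read from the parting of the sums. Within that list the ranges of Etv1 (49.6 to 127 CPM in WT, 208 to 292 CPM labelled KO) and Crym (96.3 to 238 CPM in WT, 18.6 to 56.2 CPM labelled KO) lay apart in opposite directions, both named after their values were seen. Pcp4, also of that list, was lower with the KO label, with means of 43.2 ± 13.6 CPM in WT somata and 11.97 ± 1.80 CPM in somata labelled KO (TMM-scaled). The remaining members are not given here, so no balance of directions is read from these genes. The part of these markers in the Selenom difference was not tested.

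**Figure D4:**
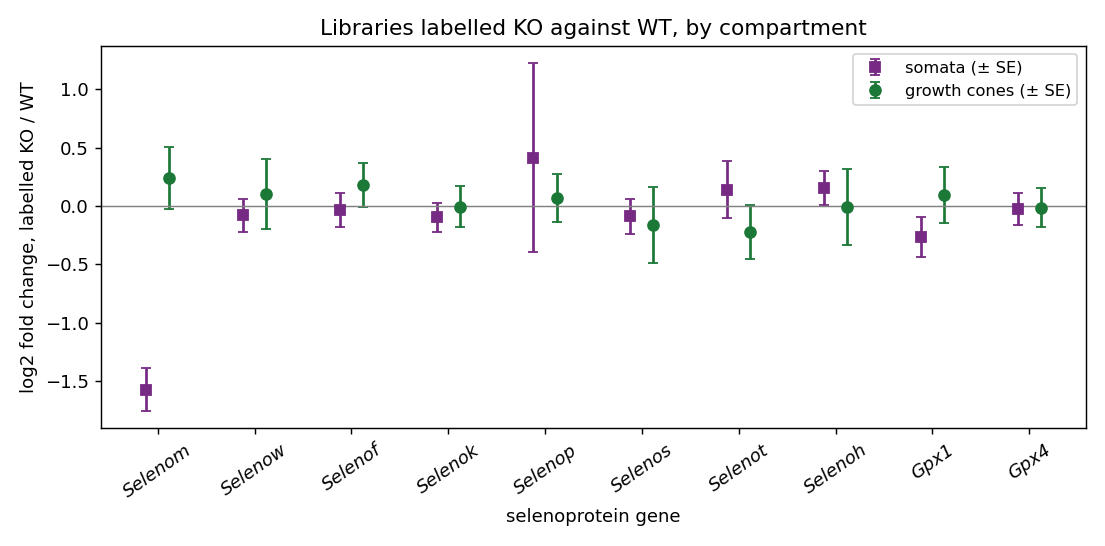
Log2 fold change of libraries labelled KO over WT (y axis, bars of 1 SE) for each selenoprotein gene (x axis) in somata (squares) and growth cones (circles). Selenom in somata lies at -1.57, and the other 19 points lie between -0.27 and 0.41.

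The genotype difference of Selenom was -1.57 ± 0.18 in somata and 0.24 ± 0.26 in growth cones on the log2 scale. The growth cone value was smaller than its SE and the genotypes overlapped there, so no rise in growth cones is read from it. Fitted over all 20 libraries, the difference between the compartments was 1.80 ± 0.34, given as a description because it rests on the same soma values. In that fit 0.0397% of 17645 genes were past the threshold, and nothing is read from the place of the 10 genes among them. The interaction of the other 9 genes ran from -0.39 ± 0.32 for Selenot to 0.35 ± 0.32 for Gpx1. Without growth cone library 10 labelled KO the Selenom value was 1.98.

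Across the 20 libraries, the genes whose level was most like that of Selenom among the 11338 genes that averaged 5 CPM or more were Pcp4 (Pearson r = 0.986 on log2(CPM + 1), n = 20), Fxyd7 (r = 0.975) and Tmem91 (r = 0.972). The points share compartment, depth and scaling, and no test was made. Pcp4, a calmodulin-binding protein gene that is also among the markers of subcerebral projection neurons used here, averaged 299 ± 95.3 and 282 ± 119 CPM in WT growth cones and growth cones labelled KO, and 43.2 ± 13.6 and 11.97 ± 1.80 CPM in the corresponding somata. Fxyd7, which encodes a regulator of the sodium pump, averaged 176 and 163 CPM in growth cones and 16.3 and 5.63 CPM in somata. Tmem91 averaged 54.7 and 46.6 CPM in growth cones and 5.68 and 1.05 CPM in somata. All 3 genes had lower means in somata labelled KO than in WT somata, and their growth cone means differed by less than the spread between libraries. They were picked for likeness to Selenom over these same libraries, so this pattern follows from the choice and is no separate result.

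The other 14 mouse selenoprotein genes were split between the compartments. Of 11 tested in WT, 2 were higher in growth cones, 2 were lower and 7 did not pass the threshold (edgeR), near the shares over all tested genes (23.1% higher and 19.7% lower), with a median log2 fold change of -0.27. Of 11 tested in libraries labelled KO, 2 were higher and 3 lower, with a median of -0.23; the 3 became 1 with length offsets and 5 with DESeq2. Gpx3, the secreted plasma glutathione peroxidase, was higher, at 29.1 to 118 CPM in WT growth cones against 3.30 to 12.3 CPM in WT somata (log2 fold change 2.95 ± 0.51, adjusted p = 0.00059, edgeR). Selenov, a relative of Selenow that is known mainly from testis, was low throughout, at 5.70 to 9.76 CPM in WT growth cones and 0 to 0.748 CPM in WT somata. It was the other gene called higher, but it passed the filter only through the growth cones and had 0 to 25 counts in WT somata, so no fold is given. Txnrd1, the cytosolic thioredoxin reductase, was lower, at 112 ± 33.7 CPM in WT growth cones against 248 ± 29.1 CPM in WT somata (log2 fold change -1.10 ± 0.20, adjusted p = 0.00085, edgeR). Txnrd3, a thioredoxin-glutathione reductase, was also lower in WT growth cones (log2 fold change -1.44 ± 0.35, adjusted p = 0.00562). In libraries labelled KO the log2 fold changes were 2.79 for Gpx3, -1.47 for Txnrd1 and -1.87 for Txnrd3, and the call for Txnrd1 was lost with length offsets (-0.85, adjusted p = 0.0751, edgeR). Selenoi, an ethanolamine phosphotransferase, was lower there (-1.07 ± 0.33, adjusted p = 0.0224, edgeR), a call lost with upper-quartile scaling, library totals alone, length offsets (-0.67, adjusted p = 0.108) and without soma library 22 labelled KO.

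The remaining selenoprotein genes gave no call with edgeR as reported in either genotype. The mitochondrial enzymes Txnrd2 and Selenoo had WT log2 fold changes of -0.27 ± 0.30 and -2.80 ± 1.17, the methionine sulfoxide reductase Msrb1 1.17 ± 0.56, the ER protein Selenon 0.34 ± 0.50 and the selenophosphate synthetase Sephs2 -0.54 ± 0.23. DESeq2 called Msrb1 (adjusted p = 0.0315) and Selenoo (0.0214) in WT and Selenoo (0.0493) and Txnrd2 (0.0356) in libraries labelled KO. Sephs2 was lower in WT growth cones with length offsets (adjusted p = 0.00547, edgeR) and with all libraries in 1 fit (0.0462), and Txnrd2 in libraries labelled KO in the latter fit (0.0156). Exons of Selenoo, Sephs2 and Txnrd2 overlap genes on the opposite strand, and whether counting used strand was not stated. Of the thyroid hormone deiodinases, Dio1 had a count of 0 in all libraries and Dio2 and Dio3 averaged at most 3.77 CPM in any group. Gpx2 was counted in a single WT growth cone library only, at 4.36 CPM (group median 0), and was too low to test.

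Genes for selenocysteine insertion and selenium supply were split. Of 13 such genes, 3 were higher in WT growth cones, 5 were lower and 5 did not pass the threshold, with a median log2 fold change of -0.15, beside 23.1% higher and 19.7% lower over all tested genes. The lower genes were 3 with length offsets and with upper-quartile scaling, and also without WT growth cone library 10 or without WT soma library 14 or 25. Rpl30, a ribosomal protein that also binds the SECIS element (1.60 ± 0.21, adjusted p = 8.6e-05, edgeR), and Trnau1ap, a partner of the selenocysteine tRNA (1.46 ± 0.22, adjusted p = 0.00024), were higher, as was Pstk. Rpl30 has near-identical processed copies in the genome, so its value is uncertain. The lower ones were Ncl, which encodes nucleolin (-1.76 ± 0.17, adjusted p = 1.0e-05, edgeR), Sars, the seryl-tRNA synthetase (-0.91 ± 0.13, adjusted p = 0.00018), Eif4a3, Secisbp2l and Lrp8. Pstk, Eif4a3, Secisbp2l and Lrp8 are named only to complete these counts, after their values were seen. In libraries labelled KO, 3 genes were higher (Rpl30, Trnau1ap and Pstk) and 4 were lower (Ncl, Eif4a3, Secisbp2l and Lrp8), against 2 lower with length offsets. Secisbp2 and Eefsec, the central factors, gave no call, at -0.02 ± 0.95 and -0.87 ± 0.51 in WT.

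Partners of the ER selenoproteins included more lower than higher genes. Of 10 genes, 1 was higher in WT growth cones, 6 were lower and 3 did not pass, with a median log2 fold change of -1.19, beside 23.1% higher and 19.7% lower over all tested genes. With length offsets 3 were lower. Vcp, the ATPase that extracts proteins from the ER and binds SELENOS, averaged 103 ± 14.4 CPM in WT growth cones and 810 ± 129 CPM in WT somata (log2 fold change -2.93 ± 0.16, adjusted p = 1.4e-07, edgeR). Sel1l, part of an ER ubiquitin ligase complex, had a log2 fold change of -2.07 ± 0.25 in WT, and Zdhhc6, the palmitoyl transferase that works with SELENOK, -1.54 ± 0.44 (adjusted p = 4.9e-05 and 0.0137, edgeR). The call for Zdhhc6 was lost with length offsets (-1.06, adjusted p = 0.0748, edgeR). The higher gene was Ubxn6, named after its value was seen, and its call was lost without the count filter and, in WT, without growth cone library 7, 8 or 11 or soma library 14, 22, 25 or 26. In libraries labelled KO, 1 gene was higher (Ubxn6) and 3 were lower, Vcp and Sel1l among them, with a median of -0.38.

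Of 20 genes for thiol and peroxide defence without selenium, 7 were higher in WT growth cones, 2 were lower and 11 did not pass, with a median log2 fold change of 0.31, beside 23.1% higher and 19.7% lower over all tested genes. The lower genes were 5 with length offsets and 4 with all libraries in 1 fit. Thioredoxin Txn1 measured 494 ± 58.7 CPM in WT growth cones and 144 ± 27.3 CPM in WT somata (log2 fold change 1.82 ± 0.15, adjusted p = 3.3e-06, edgeR), and the mitochondrial thioredoxin Txn2 had a log2 fold change of 0.85 ± 0.14 (adjusted p = 0.00035). Peroxiredoxin Prdx6 was higher (1.47 ± 0.18, adjusted p = 5.9e-05, edgeR) and peroxiredoxin Prdx1 was lower (-1.15 ± 0.17, adjusted p = 0.00023). Acsl4, which activates the polyunsaturated fatty acids of membrane phospholipids, was the other lower gene and is named after its value was seen. With the KO label, 7 genes were higher and 3 lower (Prdx1, Acsl4 and Cat), with a median of 0.47. With edgeR as reported, no gene of these 4 lists passed the threshold between genotypes in growth cones or in somata, or in the interaction. In somata DESeq2 called 1 gene of the selenocysteine list lower, and 1 of the thiol and peroxide list higher and 1 lower.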

How the data were processed

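The values are raw gene counts of 20 libraries (RNA input 0.19 to 3.1 ng for growth cones and 1.8 to 3.1 ng for somata, amplified with SMART-seq v4, per the labels' protocols), deposited by the authors as 1 table of exon counts per gene without scaling. Trimmomatic 0.39, STAR 2.7.1a, featureCounts 1.5.0 and the build GRCm39 are named in the submitters' processing notes. The exon coordinates of the table are instead identical to GENCODE M21 (GRCm38) for 54435 of 55487 genes (98.1%), the 10 genes described here included, so coordinates are those of GRCm38 and M21 supplied symbols for 55141 genes and the transcript sequences. Use of strand and of reads that map to several places was not given in the sources used here. The table held 0 columns without a sample and 0 entries that name no gene.

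Libraries were grouped by title. Genes were filtered (filterByExpr, minimum count 10), scaled by TMM and tested with the quasi-likelihood F test of edgeR 4.0.16 in R 4.3.3, with only the 2 groups compared in a fit, Benjamini-Hochberg adjustment over all genes tested and FDR 0.05. All 10 genes passed the filter in every comparison. The interaction used all 20 libraries. SE were derived from F. TPM used the deposited exonic lengths, and marker sums are CPM by library total. Replicate libraries differed beyond sampling noise (smallest chi-square per degree of freedom 52.7), so none was merged. The scripts were tested on simulated data.

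The members, lists, tests and alternatives were chosen with earlier results of these data known. Genes named are the 10 genes, Bcl11b, all other selenoprotein genes, up to 4 genes of each other list with the lowest p in WT compartments among those called, and the 3 genes most like Selenom. The values of 1 gene within this rule are not reported here. Alternatives were other scalings, no count filter, DESeq2 1.42.0, length offsets, all libraries in 1 fit, a replicate block and each library left out. Leaving out the growth cone libraries numbered 10 was added after the data were seen. Depth limits precision for Selenop and Selenov in somata, and counting intervals would not cover amplification, since the protocol names no molecular identifiers.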

Additional observations from a re-analysis of the deposited data

Results flagged for a closer look

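Selenom in soma library 26 labelled KO stood apart from the other 4 libraries of its group, at 13.969 CPM against 19.6 to 21.9 CPM. The gap to its nearest neighbour was 0.717 of the range of the group, above the critical value of 0.71 for 5 libraries. This library also had the lowest Selenop and Selenos among the somata. Without it, all soma libraries labelled KO lay between 19.6 and 21.9 CPM of Selenom, still below every WT soma library.

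Selenop in WT soma library 12 was 1.12785 CPM against 12.5 to 16.4 CPM in the other 4 libraries, with a gap of 0.744 of the range. That library had the lowest sums of vessel and blood (3.38 CPM), astrocyte (22.7 CPM) and microglial markers (37.95 CPM) among WT somata and was the highest of all somata for 8 of the 10 genes. The part of these markers in the value was not tested. In all, 2 of the 40 sets of 5 libraries (10 genes in 4 groups) stood out this way, and chance alone flags about 1 in 20.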

How the results depend on the processing

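In the compartment comparisons, the 9 genes called higher kept their direction and call under every scaling, without the count filter, with DESeq2, with all libraries in 1 fit and without any 1 library, and the length offset ended the call of Gpx1 in both genotypes. Upper-quartile scaling moved the median over all genes, on the log2 scale, from 0.07 to 0.28 in WT and from 0.11 to 0.31 in libraries labelled KO, and the share of higher among called genes from 54.0% to 63.0% in WT. With length offsets 1 of the 10 genes was lower in WT growth cones. The cause of the changes given here was not tested.

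Directions also turned. In WT compartments the length offset gave -0.77 for Selenos, -0.071 for Gpx1 and 0.12 for Txnrd2. In libraries labelled KO Selenos gave -0.0076 without the count filter, -0.80 with length offsets and -0.0106 with all libraries in 1 fit, and Sephs2 -0.0076 without the filter. Length offsets there gave -0.25 for Msrb1, 0.061 for Selenon, -0.31 for Sephs2 and 0.57 for Zdhhc6, and upper-quartile scaling 0.044 for Zdhhc6. Leaving out 1 library moved Selenos from -0.23 to 0.25, Sephs2 from -0.10 to 0.16 and Zdhhc6 from -0.61 to 0.082.

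The number of genes called varied more between genotypes. In growth cones DESeq2 called 11 genes and the fit of all libraries 7, against 0. In somata DESeq2 called 389, the fit of all libraries 30 and the fits without 1 library 67 to 107, against 109. In the interaction DESeq2 called 262, length offsets 13 and leaving out both growth cone libraries numbered 10 also 13, against 7, and the fits without 1 library 5 to 12. In compartments the fits without 1 library called 5776 to 6536 genes in WT and 5311 to 6449 in libraries labelled KO. For the 10 genes the interaction is a description, and nothing is read from the number past its threshold, which was 0, and 1 with library totals alone, DESeq2, length offsets or both libraries numbered 10 left out, and 0 to 1 without 1 library. The value of Selenom was 1.66 to 1.98 in the fits without 1 library.

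Without both growth cone libraries numbered 10 the growth cone genotype difference was 0.016 for Selenok, -0.058 for Selenop and 0.032 for Gpx4, and the interaction 0.071 for Selenos and 0.068 for Gpx4. The interaction of Gpx4 was 0.011 with median-of-ratios scaling, 0.018 with upper-quartile scaling, 0.011 with DESeq2 and 0.11 with length offsets. Leaving out 1 library, the growth cone genotype difference ran from -0.11 to 0.15 for Bcl11b, -0.035 to 0.26 for Gpx1, -0.084 to 0.10 for Gpx4, -0.19 to 0.16 for Selenoh, -0.094 to 0.099 for Selenok, -0.032 to 0.18 for Selenop, -0.42 to 0.019 for Selenos and -0.076 to 0.28 for Selenow. In somata it ran from -0.095 to 0.10 for Gpx4, -0.10 to 0.11 for Selenof, -0.16 to 0.013 for Selenok, -0.15 to 0.72 for Selenop and -0.17 to 0.074 for Selenow. The interaction ran from -0.14 to 0.12 for Gpx4, -0.35 to 0.0028 for Selenoh, -0.042 to 0.17 for Selenok, -0.66 to 0.19 for Selenop, -0.36 to 0.11 for Selenos and -0.020 to 0.36 for Selenow. For Selenom in somata it stayed between -1.64 and -1.46.

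Same-numbered libraries of the genotypes deviated together with low, positive correlations, 0.03 to 0.11 in growth cones and 0.02 to 0.15 in somata. Each growth cone library was closest to its own number, as were 2 of 4 in somata, so the libraries may be paired by number. The fits as reported carried no pairing, and a replicate block was an alternative. With a replicate block 0 genes were called in growth cones, 34 in somata and 0 in the interaction, and Bcl11b in somata was 0.68 with an adjusted p of 0.167 (edgeR), its call lost. The block gave growth cone differences of 0.0073 for Selenok, 0.0069 for Selenoh and -0.016 for Bcl11b, soma differences of 0.086 for Selenow, 0.079 for Selenof, 0.043 for Selenok, -0.49 for Selenop and 0.077 for Gpx4, and interactions of -0.076 for Selenow, -0.050 for Selenok and 0.53 for Selenop. Compartments share no numbers.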
